A study of Mus musculus with 8 samples.

Results

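The 2 liver X receptors and 8 genes of cholesterol efflux, lipid uptake, membrane lipids and cholesterol storage were followed in macrophages from obese adipose tissue. They were taken by symbol from the deposited table of normalized gene counts: Abca1, Abcg1, Nr1h3, Nr1h2, Mylip, Apoe, Pltp, Smpdl3a, Lpcat3 and Soat1. All 10 have a row, out of 15867 genes in the table. Liver X receptors are nuclear receptors that bind oxysterols, oxidised forms of cholesterol, and act on DNA as partners of the retinoid X receptors. When a macrophage takes up more cholesterol than it can use, they switch on the membrane pumps and apolipoproteins that pass it to lipoprotein particles outside the cell. Macrophages of obese fat take up lipid from dying adipocytes, so this route is one of their ways to dispose of it.

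The macrophages were taken by selection for the surface protein F4/80 from mice fed a high-fat diet for 20 weeks, and poly(A) RNA was sequenced. The 8 libraries form 2 groups of 4. All mice carried Mirc11fl/fl and Mirc22fl/fl, loxP-flanked alleles of the clusters that encode microRNAs of the families miR-23, miR-24 and miR-27. Controls were Lyz2+/+, and knockouts were Lyz2Cre/Cre, in which Cre recombinase sits in both copies of the lysozyme gene Lyz2 and is made in myeloid cells. The comparison asks which transcripts differ once the clusters are lost from these cells. No group carried Cre with intact clusters, so the loss of the clusters, Cre and the loss of Lyz2 cannot be told apart. Neither the age of the mice nor the number of animals per library is stated in the labels.

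Lyz2 ran from 156727 to 204853 in control and from 174 to 273 in knockout libraries, which fits all 8 labels. Recovered totals were 31789395 to 46621080 reads per library. Over all genes 573 of 15862 tested (3.61%) passed an adjusted p of 0.05, with 196 higher (1.24%) and 377 lower (2.38%) in knockout. When each library was scaled to the same total, 245 were higher and 244 lower. Values below are normalized counts, as mean ± SD with n = 4 where a mean is given. Each difference is that of log2(normalized count + 1), knockout less control, as fitted by limma, with p adjusted over all genes tested and an unadjusted 95% confidence interval. Summed markers of 7 macrophage genes (Adgre1, Cd68, Csf1r, Cd14, Fcgr1, Mertk and Itgam) were lower in every knockout library (142845 to 151350) than in every control library (169156 to 207799). Of these 7 genes 3 passed, all lower, where 2.38% of all genes tested did. Adgre1, Cd14 and Mertk overlapped between the groups. Summed markers of 5 adipocyte genes were higher in every knockout library (1772 to 2220 against 1214 to 1675). So were those of 4 dendritic cell genes (1765 to 1960 against 869 to 1475). Zbtb46 made up most of that sum (on average 899 of 1221 in control and 1386 of 1861 in knockout libraries). In both lists 0 genes passed. The adipocyte genes Adipoq, Plin1, Cidec and Cfd and the dendritic cell genes Flt3, Xcr1 and Cd209a overlapped between the groups. Sums of the other marker lists overlapped between the groups. The knockout mean was 1.90 times the control mean for mast cells and eosinophils (with 1 marker past the threshold, higher) and 1.75 times for T and NK cells, and the B cell sum averaged 499 in control and 748 in knockout libraries. The knockout mean was 1.42 times the control mean for mesothelial cells, 1.41 times for endothelial cells, 1.33 times for fibroblasts and 1.06 times for neutrophils. The fibroblast sum averaged 92928 in control and 123745 in knockout libraries, and the endothelial sum 52557 and 74135. The macrophage sum averaged 190407 and 146714, so transcripts of stromal cells were a sizeable part of these libraries and rose on average in knockout. The part of these shifts in the differences below was not tested, and in bulk RNA fewer cells of a type and less RNA per cell cannot be told apart.

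The microRNAs removed by the deletion are shown because their seeds (bases 2 to 8, in capitals, 5′ to 3′) set which transcripts they can pair with. The mature sequences are from RefSeq on GRCm38.p6, the assembly also called mm10. Both copies of miR-27 share 1 seed, and miR-24 is encoded in both clusters with 1 mature sequence. The table has no entry for mmu-miR-23b-3p.
mmu-miR-23a-3p: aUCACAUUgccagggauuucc
mmu-miR-27a-3p: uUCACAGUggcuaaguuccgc
mmu-miR-27b-3p: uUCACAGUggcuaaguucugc
mmu-miR-24-3p: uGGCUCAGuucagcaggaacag

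For each of the 10 genes, the longest 3′ untranslated region in GENCODE M21 (mm10) was searched for the 8-base match of each seed (the complement of the seed followed by A) and for its 7-base core. An 8-base match was found in 2 of the 10: Abca1, for miR-27, and Soat1, for miR-24. Of 14796 tested genes with such a region, 19.7% hold an 8-base match of at least 1 of the families, 6.41% that of miR-27 (ACTGTGAA) and 8.77% that of miR-24 (CTGAGCCA). The Abca1 match is at chr4:53031477-53031484 on the minus strand, base 2459 of a region of 3156 bases. The Soat1 match is at chr1:156430468-156430475 on the minus strand, base 584 of 6534. A 7-base core was found in 4 of the 10, against 41.1% of the tested genes. Abcg1 (chr17:31117866-31117872, plus strand) and Mylip (chr13:45410658-45410664, plus strand) each hold 1 core of miR-23. Soat1 holds a further core of miR-23 and of miR-24. Nr1h3, Nr1h2, Apoe, Pltp, Smpdl3a and Lpcat3, whose regions run from 188 to 635 bases, hold none of these letters, while the median region of tested genes has 1182 bases. Such a match describes the letters and does not show pairing. The matches are printed with up to 11 bases on either side, the matched letters in capitals.
Abca1, miR-27: aaaacttactaACTGTGAAtatgagaaaga
Soat1, miR-24: gggacagcaccCTGAGCCAcagcccaggcc
Abcg1, miR-23: aggagaatgagAATGTGAcagacagacaa
Mylip, miR-23: aagaaaacaagAATGTGAccacacctctt

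Liver X receptors bind a pair of direct repeats with 4 spacer bases, the DR4 element. Promoter windows from 250 bases before to 50 after the annotated start were searched on both strands for a loose form, a pair of GGTNA with 5 bases of any kind between them, and a strict form, a pair of AGGTCA with 4 bases between them. RefSeq windows were present for 8 of the 10 genes (11 windows), and not for Abcg1 and Smpdl3a. The loose form was found in 1 window, that of Abca1, and in 0.718% of 32851 promoters of this length. It lies at chr4:53159948-53159962, beginning 67 bases before the start, and reads GGTNA on the strand opposite to the gene. The strict form was in none of the 11 windows and in 5 of all promoters. The Abca1 stretch is shown in the direction of the gene, the match in capitals, because it is the textbook type of site through which oxidised cholesterol raises this pump.
Abca1, DR4: cagcgttTGACCGGTAGTAACCccggcgc

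Of the 10 genes 1 passed the test, Smpdl3a, which was lower in knockout macrophages. The other 9 did not pass, and their estimates ran from -0.22 for Soat1 to 0.23 for Abca1 on the log2 scale. The median of the 10 was -0.02, beside 0.00 over all genes tested, with 5 estimates above 0 and 5 below. As 3.61% of all genes passed, 1 gene in 10 says little about the group as a whole. Knockout and control libraries did not overlap for 2 of the 10, Smpdl3a and Lpcat3, both lower in knockout. Over all genes tested the groups did not overlap for 13.7%, with knockout lower for 8.21% and higher for 5.52%. With edgeR on the recovered reads, where 3.5% of all genes passed, and with DESeq2, where 10.9% did, the 1 gene of the 10 that passed was again Smpdl3a.

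**Figure D1:**
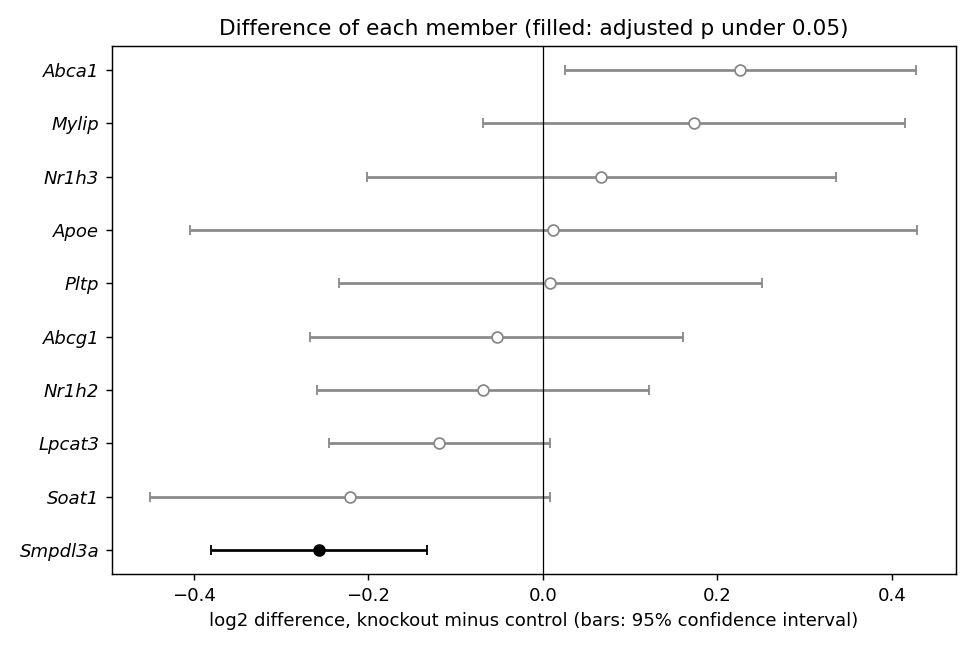
Log2 difference, knockout minus control, of each of the 10 genes, with the 95% confidence interval from limma (4 libraries per group); the filled point passed an adjusted p of 0.05. Smpdl3a is the only filled point, at -0.26, and Abca1 lies highest, at 0.23.

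The receptors themselves came first. Nr1h3 encodes LXRα, the form typical of macrophages, liver and fat. It measured 3095, 2651, 2586 and 3547 in the control libraries, in replicate order, and 3427, 2624, 3011 and 3350 in those of the knockout. The knockout values lay within the control range (log2 difference 0.07, 95% confidence interval -0.20 to 0.34, limma adjusted p = 0.793). Nr1h2 encodes LXRβ, the form found in most tissues. It measured 4307, 4971, 5160 and 5427 in control and 5233, 4497, 4832 and 4365 in knockout libraries. Again no knockout library left the control range (-0.07, interval -0.26 to 0.12, limma adjusted p = 0.693). The ratio of Nr1h3 to Nr1h2 counts ran from 0.501 to 0.719 in control and from 0.584 to 0.767 in knockout libraries, a log2 difference of 0.14 (SE 0.15). A two-sided exact permutation test gave p = 0.371, where 4 against 4 can reach 0.0286. This ratio and the next were chosen after the values were seen, and adjusted over both the p was again 0.371.

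**Figure D2:**
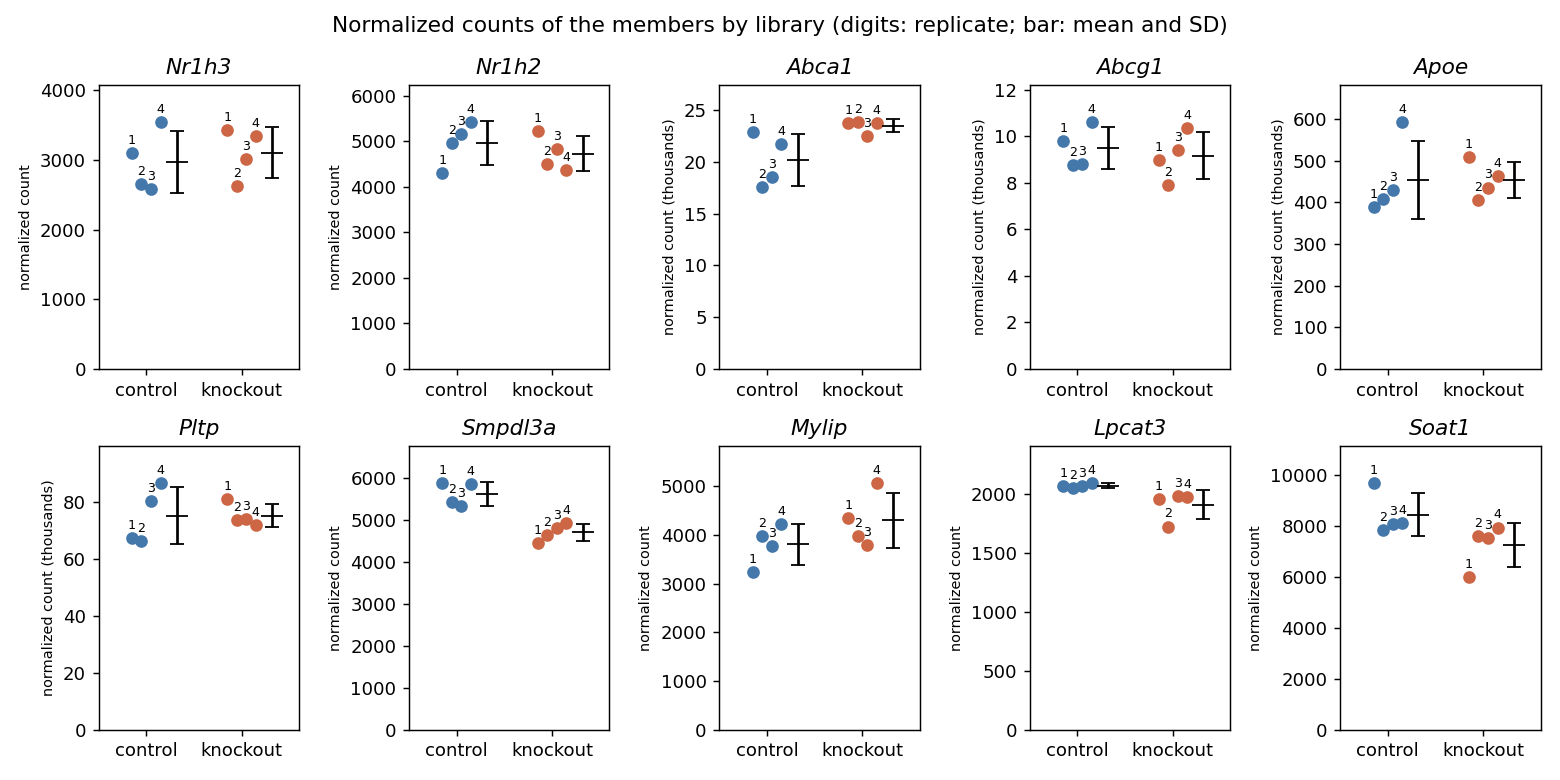
Normalized counts (vertical axis, starting at 0, scaled as each axis states) of the 10 genes in each of 4 control and 4 knockout libraries; digits give the replicate and bars the mean and SD. The groups separate for Smpdl3a (4464 to 4924 in knockout, 5332 to 5895 in control) and for Lpcat3, whose knockout replicate 2 lies lowest.

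Abca1 and Abcg1 encode the pumps that carry the efflux. Abca1 hands cholesterol and phospholipid to lipid-poor apolipoprotein A-I, and Abcg1 adds cholesterol to formed high-density lipoprotein particles. Abca1 measured 22919, 17568, 18587 and 21724 in control and 23764, 23865, 22546 and 23809 in knockout libraries. Of the knockout libraries 3 lay above the highest control, and all 4 above the control mean, while control replicates 2 and 3 lay well below the rest. The spread was wider in control (a coefficient of variation of 12.5%) than in knockout libraries (2.70%). The difference of 0.23 (SE 0.09, interval 0.03 to 0.43), a fold of 1.17, had an unadjusted limma p of 0.0314 and did not pass (adjusted p = 0.192). Over all genes tested, 21.2% had an unadjusted limma p under 0.05, with 10.8% higher and 10.4% lower in knockout. Abca1 holds the 8-base miR-27 match and the DR4 match shown above. Soat1, the other gene with an 8-base match, had an estimate of -0.22. The part of these matches in either estimate was not tested.

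Abcg1 measured 9793, 8750, 8791 and 10614 in control and 8983, 7901, 9418 and 10338 in knockout libraries. The groups overlapped, with 1 knockout library below the control range (-0.05, SE 0.09, interval -0.27 to 0.16, limma adjusted p = 0.797). The pumps were also compared within each library. The count of Abca1 for each count of Abcg1 was 2.34, 2.01, 2.11 and 2.05 in control and 2.65, 3.02, 2.39 and 2.30 in knockout libraries. Knockout replicates 1 to 3 exceeded every control in this ratio. The log2 difference of the ratio was 0.28 (SE 0.10), with a two-sided exact permutation p = 0.0571 and 0.114 adjusted over the 2 ratios, so it did not pass. This ratio was chosen after the values were seen, and the adjustment does not cover that choice. Leaving out 1 library gave differences from 0.20 to 0.33.

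**Figure D3:**
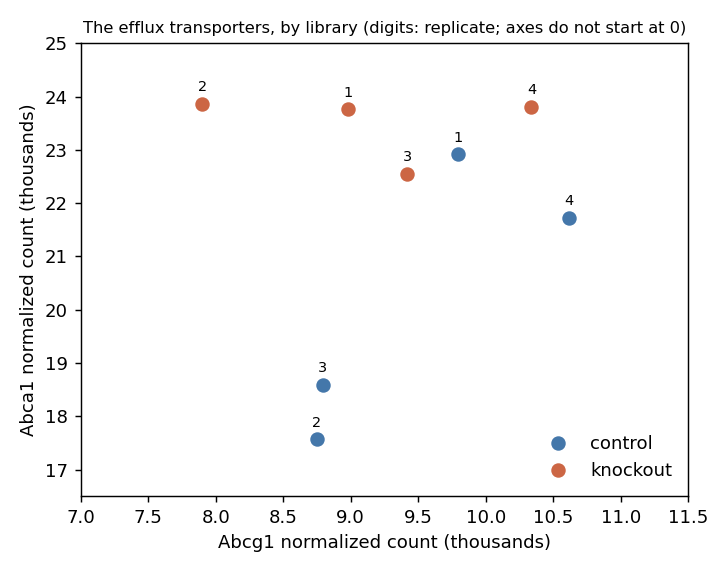
Abca1 (vertical) against Abcg1 (horizontal), both as normalized counts scaled as the axes state, in each library, with digits for the replicate and axes that do not start at 0. Control replicates 2 and 3 lie low for Abca1 (17568 and 18587), and the 4 knockout libraries lie between 22546 and 23865 for Abca1 while Abcg1 runs from 7901 to 10338.

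The genes with the profiles most like each pump over the 8 libraries were sought among 11909 genes with a mean of at least 100. For Abca1 these were Rinl, a regulator of small GTPases (Pearson r = 0.96), Mrps16, a mitochondrial ribosomal protein (0.95), and Copz1, a subunit of the coat of Golgi vesicles (0.94). For Abcg1 they were Clint1, a clathrin adaptor (0.95), Fzd1, a receptor for Wnt ligands (0.94), and Rspry1 (0.93). None of these 6 passed the test between the groups, with adjusted p from 0.303 to 0.921. The r values are the highest of a long search over 8 points that share libraries, and are given as a description.

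Apoe and Pltp act on the lipoprotein side. Apoe encodes apolipoprotein E, which macrophages secrete as an acceptor of cholesterol. It measured 388175, 407933, 430017 and 593172 in control and 509799, 406004, 435728 and 463493 in knockout libraries. The knockout libraries lay within the control range, which control replicate 4 stretched upward. The difference was 0.01 (SE 0.18, interval -0.40 to 0.43, limma adjusted p = 0.981), so folds from 0.756 to 1.35 lie within the interval. Pltp encodes phospholipid transfer protein, which remodels high-density lipoprotein. It measured 67398, 66296, 80256 and 86771 in control and 80995, 73737, 74142 and 72032 in knockout libraries. The knockout libraries sat in the middle of the control range (0.01, SE 0.11, limma adjusted p = 0.974). Pltp shares 495 exonic bases with Ctsa on the opposite strand, and no source used here says whether counting used the strand. Ctsa, the lysosomal protective protein, fell from 36015 ± 1533 to 25819 ± 1243, and the part of the shared stretch in the counts of Pltp was not tested.

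Smpdl3a, Mylip and Lpcat3 were read here as reported targets of liver X receptors. Whether the receptors induce Smpdl3a in these mouse macrophages was not tested. Smpdl3a encodes a secreted phosphodiesterase of the acid sphingomyelinase family. It measured 5895, 5431, 5332 and 5870 in control and 4464, 4642, 4824 and 4924 in knockout libraries. Every knockout library lay below every control library. It fell to 0.837 of the control level (log2 difference -0.26, SE 0.05, interval -0.38 to -0.13, limma adjusted p = 0.0403). In the authors' deposited table its log2 change has an adjusted p of 0.000762. The limma call was narrow. It was lost in each of the 8 fits without 1 library (adjusted p = 0.0566 to 0.109, differences -0.28 to -0.23) and with each library scaled to the same total (-0.20, adjusted p = 0.0618). No seed match was found for it, nor for Nr1h3, Nr1h2, Apoe, Pltp and Lpcat3. In the same libraries the macrophage marker sum was 0.771 of its control mean, while 5 of the 10 genes had estimates above 0 and 5 below. The cause of the lower Smpdl3a was not tested.

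Mylip encodes an E3 ubiquitin ligase, also called IDOL, that marks lipoprotein receptors for breakdown and so limits uptake. It measured 3249, 3979, 3774 and 4235 in control and 4352, 3984, 3799 and 5075 in knockout libraries. Knockout replicates 1 and 4 lay above the control range and the others within it (0.17, SE 0.11, interval -0.07 to 0.42, limma adjusted p = 0.395). Lpcat3 encodes an acyltransferase that places polyunsaturated fatty acids in membrane phospholipids. It measured 2068, 2052, 2073 and 2098 in control and 1958, 1726, 1984 and 1980 in knockout libraries. The controls lay within a narrow band (coefficient of variation 0.927%), and all 4 knockout libraries lay below it. The difference of -0.12 (SE 0.06, interval -0.25 to 0.01) did not pass (limma adjusted p = 0.264). Lpcat3 shares 334 exonic bases with Emg1 on the opposite strand.

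Soat1 works against efflux: its enzyme, also called ACAT1, joins cholesterol to a fatty acid for storage in droplets. It measured 9711, 7859, 8102 and 8136 in control and 6000, 7607, 7519 and 7949 in knockout libraries. Control replicate 1 was the highest and knockout replicate 1 the lowest, while the other 6 lay close together and 3 knockout libraries lay below every control. The difference of -0.22 (SE 0.10, interval -0.45 to 0.01) did not pass (limma adjusted p = 0.252). Leaving out 1 library gave differences from -0.27 to -0.13, and the difference nearest to 0 came without knockout replicate 1.

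Levels of different genes were set side by side per kilobase of the longest annotated transcript. Apoe stood highest, at 323029 ± 66621 normalized counts per kilobase in control and 322270 ± 31338 in knockout libraries, and Pltp followed at 33774 ± 4489 and 33794 ± 1776. The other 8 genes lay close together, from 2872 ± 149 for Smpdl3a down to 909 ± 8.42 for Lpcat3 in control libraries. In between came Nr1h2 (2484 ± 239), Abca1 (1968 ± 247), Abcg1 (1627 ± 153), Nr1h3 (1519 ± 228), Mylip (1243 ± 137) and Soat1 (1010 ± 101). From Nr1h2 to Soat1 each neighbour overlapped the next over the control libraries, so their order is not firm. In knockout libraries Smpdl3a (2404 ± 104), Nr1h2 (2367 ± 194) and Abca1 (2290 ± 61.8) overlapped as well. Abca1 thus had the largest count of the 8 but a middle place per length, as its longest transcript has 10262 bases, against 1961 for Smpdl3a.

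**Figure D4:**
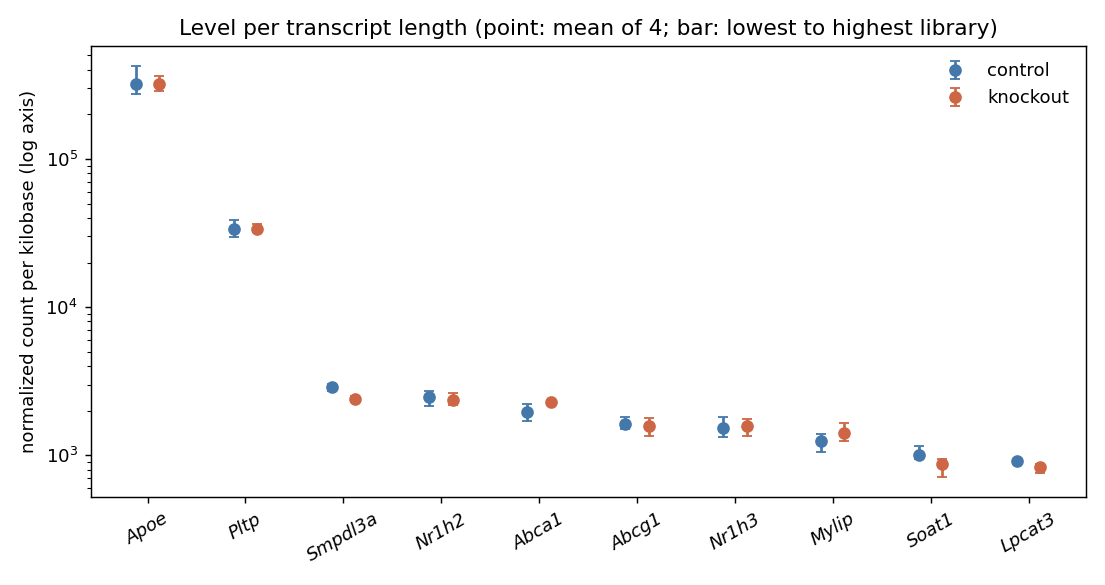
Normalized count per kilobase of the longest annotated transcript (log axis) for the 10 genes; points are means of 4 libraries and bars run from the lowest to the highest library. Apoe (323029 in control) and Pltp (33774) stand above the other 8, which lie between 838 and 2872.

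Other genes of the pathway were read from 5 lists with 53 measured genes, of which 3 passed: Npc1 and Gramd1b fell and Tgm2 rose. Over all genes tested 3.61% passed, 1.24% higher and 2.38% lower. Of 14 partners and coregulators of the receptors 0 passed in limma and in edgeR, with a median of -0.05 and 2 at an unadjusted p under 0.05, both lower, where 10.4% of all genes tested were lower at that p. The coactivator Ncoa3 was lowest (7292 ± 256 in control, 6365 ± 189 in knockout, -0.20, SE 0.05, limma adjusted p = 0.0572, and 0.00121 with DESeq2), and it shares 154 exonic bases with Sulf2 on the opposite strand. The corepressor Ncor1, the most abundant, had a difference of 0.10 (SE 0.05, adjusted p = 0.320), and the corepressor subunit Tbl1xr1 had -0.17 (SE 0.06, adjusted p = 0.180). The main partner Rxra measured 4260 ± 496 and 4270 ± 442 (chosen after its values were seen).

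Of 6 enzymes that make or clear oxysterol ligands 0 passed in limma, with a median of 0.13 and 1 higher and 0 lower at an unadjusted p under 0.05, where 10.8% of all genes tested were higher and 10.4% lower. Hsd3b7, an enzyme of oxysterol breakdown on the way to bile acids, measured 3146, 3076, 3113 and 3098 in control and 3696, 3360, 3600 and 3909 in knockout libraries. All 4 knockout libraries lay above the controls, but the call fell just short (0.23, SE 0.05, limma adjusted p = 0.0534, and 0.00314 with DESeq2). In limma it passed with scaling to the same total (adjusted p = 0.0197), array weights (0.0220), TMM factors (0.0485) and a mean of at least 50 (0.0498). It did not pass with edgeR (adjusted p = 0.0525), a replicate block in limma (0.248), no filter or other pseudocounts. Of the 8 fits without 1 library it passed in 1. Hsd3b7 shares 1717 exonic bases with Gm49388 on the same strand and 1729 with 9430064I24Rik on the opposite strand, so its values are uncertain. Gm49388 measured 1.64, 455, 275 and 206 in control and 1.76, 135, 179 and 293 in knockout libraries, lowest in replicate 1 of both groups. How reads were divided between Hsd3b7 and these genes was not tested. Cyp7b1, a hydroxylase that clears oxysterols, measured 60.5 ± 9.98 and 78.8 ± 20.5 (0.36, SE 0.20, adjusted p = 0.353). Cyp27a1, which makes 27-hydroxycholesterol and was the most abundant, had a difference of -0.13 (SE 0.13).

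Of 15 measured further targets of liver X receptors, 1 rose, 0 fell and 14 did not pass, with a median of 0.10, against 1.24% of all genes tested that rose. At an unadjusted p under 0.05, 4 were higher and 1 lower (10.8% and 10.4% of all genes), and for 3 the knockout libraries all lay above the controls (5.52% of all genes). Tgm2, a transglutaminase, rose from 11249 ± 1432 to 15415 ± 1414 (0.46, SE 0.10, limma adjusted p = 0.0427), with every knockout library (14051 to 17266) above every control (9953 to 13132). Its call held in 1 of the 8 fits without 1 library, and it shares 370 exonic bases with Rprd1b and 633 with Gm20412, both on the opposite strand. Apoc2, an activator of lipoprotein lipase, measured 97.7 ± 26.8 and 157 ± 11.4 (0.71, SE 0.19, limma adjusted p = 0.0748). All 4 knockout libraries lay above the controls, and the adjusted p was 0.0185 with DESeq2 and 0.0371 with array weights. Apoc2 shares 646 exonic bases with Gm44805 on the same strand. Lpl, the lipoprotein lipase and the most abundant, had a difference of -0.07 (SE 0.16). Srebf1, the receptors' target that drives fatty acid synthesis, had 0.02 (SE 0.07). In the same list Scd1 had 0.54 (SE 0.14, limma adjusted p = 0.0772, and 0.00531 with DESeq2), with every knockout library above every control. Scd2 had 0.33 (SE 0.11, limma adjusted p = 0.133), Elovl5 0.07 (SE 0.07) and Fasn 0.01 (SE 0.11). Srebf1, Scd1, Scd2, Elovl5 and Fasn were chosen after their values were seen.

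Mylip lowers receptors of the lipoprotein receptor family as proteins, and of 2 such genes read here 0 passed with limma, edgeR or DESeq2, and 1 was higher at an unadjusted p under 0.05 (10.8% of all genes). Vldlr, the receptor for very-low-density lipoprotein, measured 523 ± 98.1 and 711 ± 123 (0.44, SE 0.16, limma adjusted p = 0.153, and 0.0396 with array weights). Lrp8, a receptor for apolipoprotein E and reelin, measured 154 ± 21.5 and 153 ± 29.0 (-0.02, SE 0.16, adjusted p = 0.950).

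Of 16 genes of cholesterol ester and lysosomal cholesterol handling, 2 fell, 0 rose and 14 did not pass, with a median of -0.06, against 2.38% of all genes tested that fell. At an unadjusted p under 0.05, 5 were lower and 3 higher (10.4% and 10.8% of all genes). The groups did not overlap for 4 that were lower and 1 that was higher (8.21% and 5.52% of all genes). Npc1, which exports cholesterol from the lysosome, fell from 8331 ± 338 to 6926 ± 235 (-0.27, SE 0.05, limma adjusted p = 0.0263). Gramd1b, which carries cholesterol from the plasma membrane to the endoplasmic reticulum, fell from 2635 ± 201 to 2083 ± 162 (-0.34, SE 0.07, limma adjusted p = 0.0421). Each call held in 1 of the 8 fits without 1 library, and both were lost with each library scaled to the same total (adjusted p = 0.0547 for Npc1 and 0.0973 for Gramd1b). Npc1 shares 511 exonic bases with Rmc1 on the opposite strand, and Gramd1b 114 with 1700110K17Rik. Lipa, the lysosomal acid lipase and the most abundant, had -0.23 (SE 0.12, adjusted p = 0.323). Nceh1, which frees stored cholesterol from its esters, measured 10585 ± 1707 and 8080 ± 926 (-0.38, SE 0.12, limma adjusted p = 0.114, and 0.0275 with DESeq2; chosen after its values were seen). Every knockout library lay below every control for Nceh1. The same held for Npc2, also chosen after its values were seen. It measured 24730 ± 2095 and 20533 ± 1654 (-0.27, SE 0.08, limma adjusted p = 0.114, and 0.0241 with DESeq2).

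**Figure D5:**
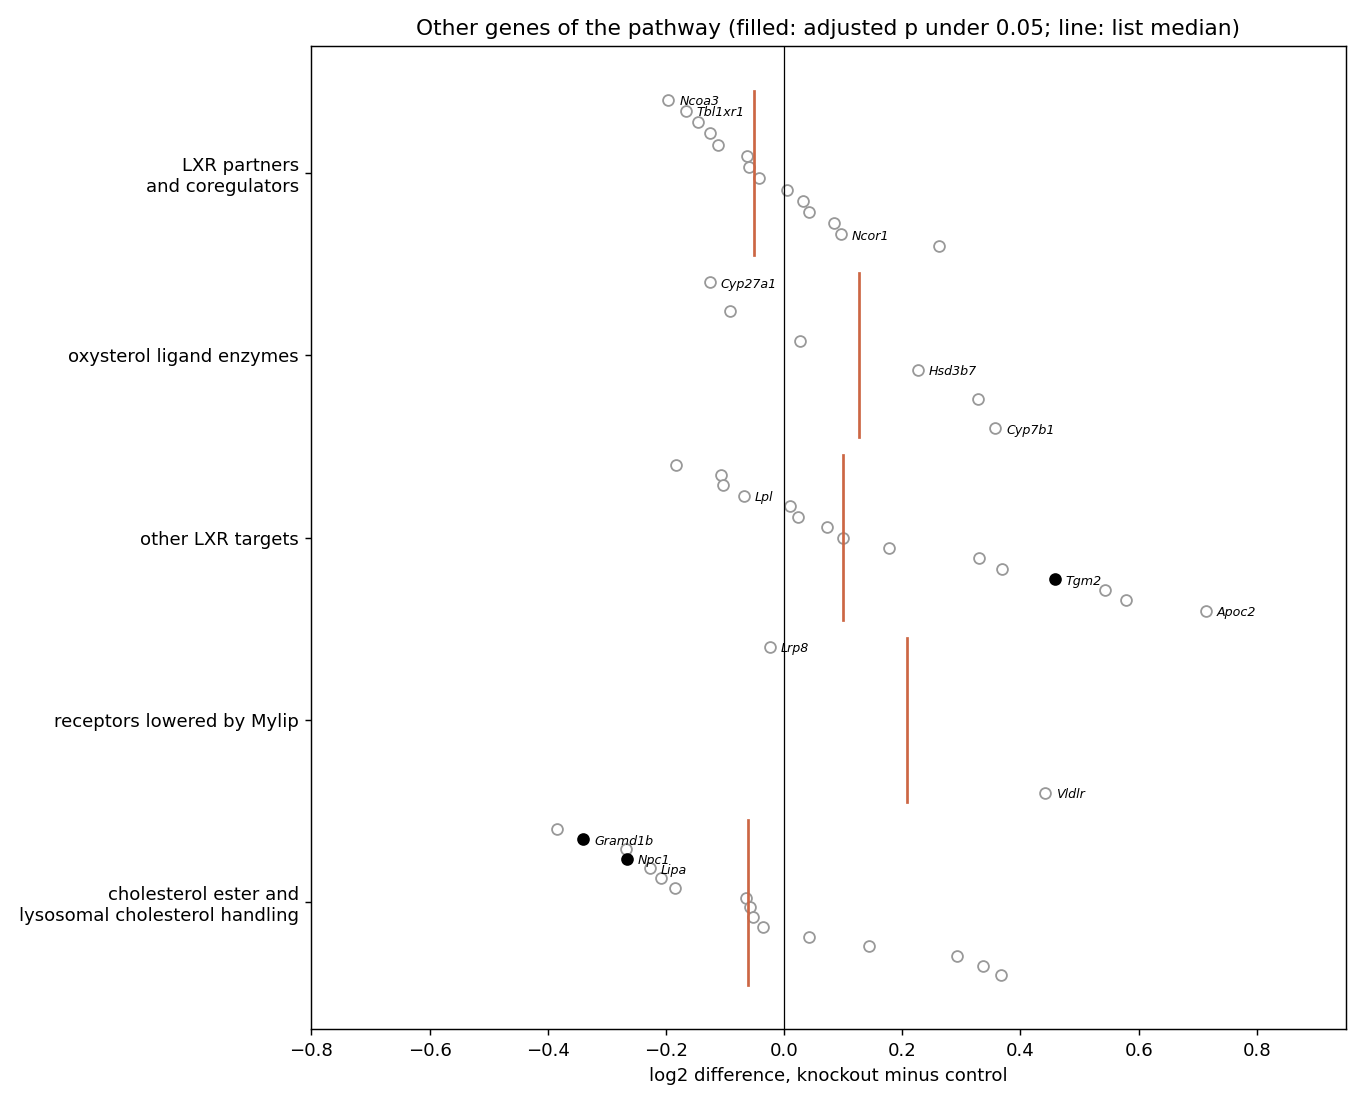
Log2 difference, knockout minus control, of the measured genes of 5 pathway lists (one row of points per list); filled points passed an adjusted p of 0.05 and the vertical line is the list median. Gramd1b (-0.34) and Npc1 (-0.27) lie to the left and Tgm2 (0.46) to the right, with list medians between -0.06 and 0.21.

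Among the 10 genes, profiles over the 8 libraries were most alike for Apoe and Pltp (Pearson r = 0.83), Smpdl3a and Soat1 (0.81) and Abcg1 and Nr1h3 (0.79), out of 45 pairs. After subtraction of the group means, r was 0.83, 0.75 and 0.86, so these likenesses were present among libraries of 1 group as well. Smpdl3a and Lpcat3, both lower in every knockout library, had r = 0.71 over the 8 libraries and 0.25 after that subtraction. These values describe 8 libraries that share their scaling.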

How the data were processed

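Normalized gene counts per library were deposited as a signal without negative values. Salmon, DESeq2, cutadapt, FastQC and the build mm10 appear in the submitters' processing notes, without versions or roles. Every value is a whole multiple of 1 step per library within 0.01 reads (100% of values), so reads were recovered for edgeR and DESeq2 as alternatives; in control replicate 4 the step is near 1. The authors' deposited DESeq2 table holds, for each gene, its mean signal, the log2 ratio of control to knockout (the sign was turned here), a standard error and statistic (score columns) and p-values.

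The main test was limma (3.58.1, run in R 4.3.3) with a trended eBayes step, applied to log2(value + 1) of 15862 genes (mean value 10 or more), two-sided, with Benjamini-Hochberg adjustment over all of them. The added 1 shrinks differences of low genes, but no value of the 10 genes was under 1726. The pipeline was tested on simulated data with known changes. These changes were larger than the estimates of the 10 genes, and the same relative spread was set for every gene. The simulation therefore does not show how well changes of the size seen here are found. edgeR was version 4.0.16 and DESeq2 1.42.0.

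Groups came from the sample titles, and p-values measure the spread between these libraries. Libraries of a group differed beyond sampling noise (chi-square per gene of at least 8.86), so all 8 were kept. The members and lists were chosen with earlier results of these data known. Named genes are the 10, and of each other list those past the threshold, the most abundant gene and the 2 of smallest p. Rxra, Srebf1, Nceh1, Scd1, Scd2, Elovl5, Fasn and Npc2 were added after their values were seen. Of these, Scd1, Scd2, Elovl5, Fasn and Npc2 were left out of the search for far libraries below. Some genes of these lists are not reported here, and the counts leave them out. There are 21 rows whose symbols had turned into dates, and Abcg5 and Abcg8 have no row in the table used here. On the recovered reads, edgeR and DESeq2 estimated the spread between libraries of a group in addition to counting error.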

Additional observations from a re-analysis of the deposited data

Results flagged for a closer look

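In 6 of 54 groups of 4 libraries (the 10 genes and 17 named genes of the other lists, 2 groups each) 1 library lay far from the other 3 by the gap to its nearest neighbour as a share of the group's range (Dixon's critical value at 95%); chance gives about 1 in 20 such groups. Among the 10 genes, Abca1 in knockout replicate 3 measured 22546 against 23764 to 23865 in the other knockout libraries. Lpcat3 in knockout replicate 2 measured 1726 against 1958 to 1984. Soat1 in control replicate 1 measured 9711 against 7859 to 8136. Among the other genes, Gramd1b in control replicate 1 measured 2934 against 2506 to 2570, Nceh1 in control replicate 1 measured 13137 against 9558 to 9872, and Npc1 in control replicate 2 measured 7825 against 8454 to 8538.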

How the results depend on the processing

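Of the 10 alternatives that keep all 8 libraries (pseudocounts of 0.5 and 5, no filter, a mean of at least 50, scaling to the same total, TMM factors, array weights, edgeR, DESeq2 and a replicate block), 8 called Smpdl3a and no other of the 10 genes, and scaling to the same total and the block called 0 of them. In the 8 fits without 1 library, 0 of the 10 passed. Over all genes the count was 1557 with DESeq2 and 931 with array weights, and 163 to 502 without 1 library (163 without control replicate 3, 210, 296, 241 and 237 without knockout replicates 1 to 4, 376 and 324 without control replicates 1 and 4). Of the 53 other pathway genes measured, 9 passed with DESeq2, where 10.9% of all genes did (1557 of 14309 with an adjusted p). With array weights 7 passed, where 931 of 15862 genes did, and 0 to 2 passed without 1 library. The sample titles give replicate numbers and state no pairing. Deviations of same-numbered libraries from their group means were correlated at -0.35 to -0.12, and those of differently numbered libraries at -0.15 to 0.35. Whether same-numbered libraries share a batch was not tested. With a replicate block 7 genes passed in all, 0 of the 10 and 0 of the other pathway genes (Smpdl3a adjusted p = 0.230). The call of Tgm2, Npc1 and Gramd1b was lost there too.

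Estimates near 0 changed sign. Abcg1 was 0.0061 with scaling to the same total and 0.026 with array weights, and ran from -0.11 to 0.016 without 1 library. Apoe was -0.0034 with DESeq2 and ran from -0.057 to 0.15 without 1 library. Pltp was -0.023 with array weights and ran from -0.048 to 0.081. Lpl was 0.067 with array weights and ran from -0.14 to 0.039. Lrp8 was 0.034 with scaling to the same total and ran from -0.13 to 0.063. With array weights Rxra was -0.047 and Srebf1 -0.016, and they ran from -0.063 to 0.070 and from -0.015 to 0.067 without 1 library. Searching for the 7-base core in place of the 8-base match raised the genes with a match from 2 to 4. Per kilobase of all annotated exons in place of the longest transcript, Abca1 stood above Nr1h2. Each of the 10 genes had at least 1726 normalized counts in every library. The causes of these shifts were not tested.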
